A study of Homo sapiens with 8 samples.

Results

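The cAMP response element (CRE) is an 8-letter palindrome, TGACGTCA, and 297 of 43569 accessible regions of HUDEP-2 cells held it in full near their summit. The regions were obtained by merging the ATAC-seq peaks of 4 libraries where peaks shared at least 1 bp. The summit of a region was taken from the peak that ranked highest by fold enrichment in its own library, and a region was kept when the whole palindrome lay within 100 bp of this summit. Promoter position and treatment were not used to choose the regions, and peak strength entered only in the choice of the summit. Of the 297 regions, 292 held 1 copy within the window and 5 held 2.

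HUDEP-2 is an established human erythroid precursor line that depends on the Kit receptor and its ligand, stem cell factor (SCF). The cells used here carried a non-targeting guide RNA (sgControl), had been expanded with dexamethasone, SCF, EPO and doxycycline, and were deprived of growth factors for 5 h before 1 h with 50 ng/ml SCF or with PBS. There were 2 libraries per treatment, each from about 50000 cells, and the 4 samples with a guide against EGR1 were not analysed here. The study's methods call the libraries of a treatment biological duplicates, without saying how the cultures were separated, and p-values cover the spread between these libraries. The lists held 29269 to 33616 peaks, and read totals are unknown. Depth recovered from the background pileup ran from 0.843 to 1.42 relative to PBS replicate 1, and the deepest library was PBS replicate 2. At the starts of erythroid marker genes, 9 of 10 had an accessible region, against 2 of 4 for myeloid cells (CD14 and CSF1R), 0 of 2 for liver and 1 of 2 for neurons (SNAP25).

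The CRE is bound by the CREB, CREM and ATF1 factors, leucine zipper proteins that bind DNA as dimers, so that each monomer reads one arm of the palindrome. Protein kinase A, which cAMP activates, phosphorylates CREB and allows it to recruit the coactivators CBP and p300. Kinases downstream of growth factor receptors, among them the RSK and MSK kinases of the MAPK pathway, phosphorylate CREB at the same serine, which is why the element is of interest in cells given SCF. The CpG in its centre blocks binding when methylated, and full palindromes that CREB occupies are known to cluster near transcription starts. AP-1 binds a related word that lacks the central C or G.

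Regions that carried the element at genes of the cAMP system are shown first, since they display where the palindrome sits. The bases were read from GRCh37, on the strand of the gene at promoters and on the plus strand away from them. The element is in capitals, and only 30 bases are given where an exon overlapped the stretch.

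CREB3L2, chr7:137686968-137687047, minus strand: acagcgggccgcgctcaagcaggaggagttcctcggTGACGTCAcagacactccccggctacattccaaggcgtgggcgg
SIK1, chr21:44847233-44847312, minus strand: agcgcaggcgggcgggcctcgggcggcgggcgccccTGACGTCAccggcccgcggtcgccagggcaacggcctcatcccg
CCNA2, chr4:122745076-122745155, minus strand: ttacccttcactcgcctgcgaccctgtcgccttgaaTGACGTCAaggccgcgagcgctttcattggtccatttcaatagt
JUND, chr19:18392589-18392668, minus strand: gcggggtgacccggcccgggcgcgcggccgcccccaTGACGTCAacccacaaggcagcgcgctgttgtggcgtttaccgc
NR4A2, chr2:157189327-157189406, minus strand: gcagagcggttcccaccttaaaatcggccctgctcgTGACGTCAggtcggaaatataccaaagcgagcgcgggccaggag
PDE4A, chr19:10527435-10527464, plus strand: cgtcagtccgcTGACGTCAcgccccaggag

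CREB3L2 encodes a membrane-bound factor of the CREB3 family, and AKR1D1 also had a start within 1 kb of the summit. The element was centred 62 bp upstream of the nearest annotated start of any gene, not of the CREB3L2 start nearest the summit. That CREB3L2 start lay 115 bp from the summit, and the element lay 61 bp from the summit on the side away from it. SIK1, a kinase that keeps the CRTC coactivators of CREB out of the nucleus, had its element 262 bp upstream. CCNA2, the cyclin A2 of S phase, had it 78 bp upstream. JUND, a subunit of AP-1, had it 197 bp upstream. PCK1, the gluconeogenic enzyme PEPCK, had it 57 bp upstream. NR4A2, an orphan nuclear receptor, had it 93 bp upstream in an intron of a longer transcript. PDE4A, a phosphodiesterase that breaks down cAMP, had it 1 bp downstream of a start, in an untranslated exon.

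The strongest regions came from other genes. IFT27 (intraflagellar transport), ZNF200 (a zinc finger gene), MAOA (monoamine oxidase A) and PSTK (a kinase of selenocysteine synthesis) were among the 10 highest-ranked promoter regions, and the region near TEX44 was the highest-ranked one away from promoters. Their sequences are shown to set the element against its surroundings.

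IFT27, chr22:37172304-37172383, minus strand: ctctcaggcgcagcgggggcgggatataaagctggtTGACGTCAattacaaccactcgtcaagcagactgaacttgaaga
ZNF200, chr16:3285193-3285222, minus strand: ggcaccggttgTGACGTCAcagccgcagag
MAOA, chrX:43513837-43513916, plus strand: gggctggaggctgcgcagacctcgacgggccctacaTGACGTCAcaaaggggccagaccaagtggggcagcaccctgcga
PSTK, chr10:124740152-124740181, plus strand: gtcgcgtatgaTGACGTCAtgcccgacgcg
TEX44, chr2:232469509-232469588, plus strand: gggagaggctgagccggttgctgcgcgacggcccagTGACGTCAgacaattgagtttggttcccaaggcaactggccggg

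Regions with the element were mainly promoters. A region counted as a promoter when its summit lay within 1 kb of an annotated transcript start (GENCODE, release 44 on GRCh37), and 246 of the 297 did, or 82.8% (95% Wilson interval 78.1% to 86.7%, counting error only). Among the 43272 regions without the element the share was 39.5%. Because the element holds G and C and promoters are GC-rich, the regions without it were also weighted to the GC content of those with it, in bins of 5 points, and their share was then 63.1%. Median GC content of the window was 66.2% in both sets after weighting. The observed over expected ratio of CpG still differed, with a median of 0.927 with the element and 0.720 in the GC-weighted regions. When GC and CpG were both weighted, with the letters of the element left out, the share of promoters without the element was 75.9%, which still lay below the interval. This second weighting was chosen after the data were seen. Of the 23 other 8-letter palindromes made of the same letters around a central CG, the most frequent had shares close to it: TCACGTGA was at promoters in 80.6% of 186 regions, inside the interval, and TTCCGGAA in 76.3% of 135. The 921 regions with any of the 23 were promoters in 61.2%.

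At these promoters the element lay just upstream of the start. It was upstream in 210 of 246 promoter regions and within 100 bp of a start in 200 (81.3%), and the median distance was -29 bp (quartiles -71 and -4, negative is upstream). Counted by the first copy in each window on the plus strand, 129 of the 246 (52.4%) lay 1 to 50 bp upstream, whereas only 29 (11.8%) lay in the first 50 bp downstream and 1 in the next 50. The 23 same-letter palindromes again served as a comparison. It leans on the most frequent of them, TCACGTGA in 150 promoter regions and TTCCGGAA in 103. Together the 23 had 577 matches at promoter regions. Of these matches, 27.9% lay 1 to 50 bp upstream and 21.5% in the first 50 bp downstream, so that they showed less of the upstream bias. Likewise, 69.1% of CRE copies but 38.0% of the other palindromes fell 1 to 100 bp upstream.

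**Figure D1:**
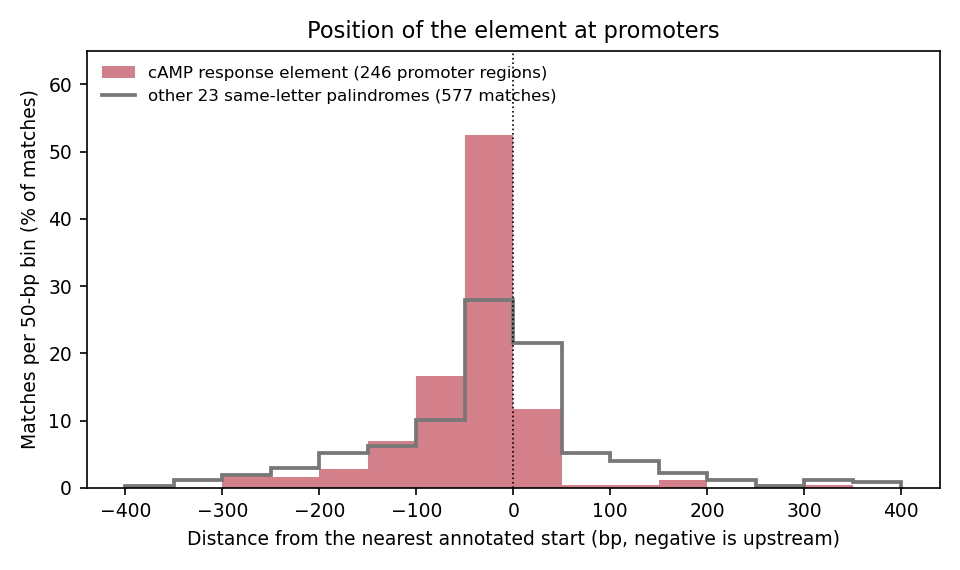
Distance of the palindrome from the nearest annotated start at promoter regions, in bins of 50 bp, as a percent of the 246 regions with the cAMP response element (filled) and of the 577 matches of 23 palindromes with the same letters (line). The filled bin just upstream of the start holds 52.4%, against 27.9% for the other palindromes.

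In terms of annotation, the element of the 246 promoter regions lay outside genes in 97, in an untranslated exon in 69, in an intron in 53, in a non-coding exon in 23 and in a coding exon in 4. The nearest start belonged to a protein-coding gene in 205, to a lncRNA in 38, to a miRNA in 2 and to an snRNA in 1. In all, 222 promoter regions had a protein-coding start within 1 kb. Protein-coding starts on both strands were found in 11.4% (Wilson interval 7.99% to 16.0%) of promoter regions with the element and in 9.55% of the GC-weighted ones without it, which lies inside the interval. The 51 regions away from promoters had their summit in an intron in 24 cases, outside genes in 24, in an untranslated exon in 2 and in a non-coding exon in 1.

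Around the summits the element was dense but not centred. Over all regions, copies per Mb of sequence scanned were 33.5 within 25 bp of the summit, 34.9 at 25 to 50 bp, 35.3 at 50 to 75 bp and 39.0 at 75 to 100 bp. The density was 36.95 at 100 to 150 bp and fell to 6.89 at 400 to 500 bp. The median of the 23 same-letter palindromes stayed between 2.07 and 4.13 copies per Mb throughout, and the densest of them reached 28.0 at 75 to 100 bp. Among the 24 same-letter palindromes the CRE was in the most regions, and among all 64 palindromes with a central CG it was in place 10, behind 9 that hold more G and C. The window of 100 bp therefore cut through the flat part of the profile. The 83 regions with a copy centred 72 to 96 bp from the summit, just inside the window, were promoters in 86.7% and had a median mean rank of 78.8. The 96 regions with a copy at 97 to 121 bp, just outside, were promoters in 86.5% with a median of 74.1.

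**Figure D2:**
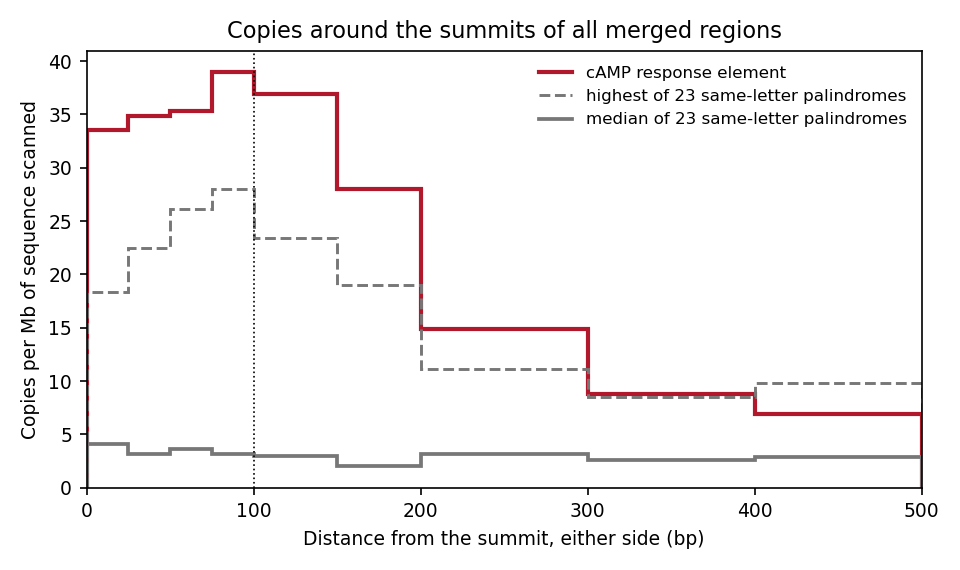
Copies per Mb of sequence by distance from the summit, both sides together, over 43569 merged regions. The cAMP response element (red) stayed between 33.5 and 39.0 within the 100-bp window (dotted line) and fell beyond 200 bp, and the median of the 23 same-letter palindromes (solid grey) stayed at or under 4.13.

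The summit also shifted between libraries. In 162 of the 297 regions the element lay within 100 bp of the top summit of every library that called the region, and so did 131 of the 257 regions called in all 4 libraries. In the others at least 1 library placed its own top summit farther away.

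The letters beside the palindrome were not evenly spread. Over the 302 copies, read outward from both ends, the base before the palindrome was G in 49.3%, C in 27.0%, A in 17.2% and T in 6.46% of 604 ends. The same windows held 32.6% each of G and C and 17.4% each of A and T when both strands were counted. G before and C after the palindrome were thus more frequent, and T before it less frequent, than in the windows around them.

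Of the 5 regions with 2 copies, each was at a promoter. TEAD1 encodes the transcription factor of the Hippo pathway, MAP1LC3A an LC3 protein of autophagosomes, and SULT4A1 a member of the sulfotransferase family. From the first base of one copy to that of the next the distance was 53 bp at TEAD1, 77 bp at MAP1LC3A and 47 bp at SULT4A1. The copies lay 31 bp apart at APTX, a DNA strand break repair gene, and 23 bp apart at HAUS5, a subunit of the augmin complex. The 5 distances had no common value. Mean percentile ranks were 93.9 at TEAD1, 90.1 at APTX, 84.4 at HAUS5 and 76.1 at MAP1LC3A. SULT4A1 was called in PBS replicate 2 alone, with a rank of 45.4.

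Regions with the element were strong. Each peak was ranked within its list by fold enrichment, the ratio of the summit pileup to the local background, from near 0 to 100, and a region was given the mean rank over the libraries that called it. The median mean rank was 77.6 (quartiles 55.9 and 89.1) with the element, 35.4 without it, 49.1 in the GC-weighted regions and 64.1 when CpG was weighted too. The order was the same in each library, with medians of 79.2 and 79.4 for PBS-treated and of 79.0 and 79.4 for SCF-treated cells, against 60.2 to 61.4 in the GC-weighted regions. Median fold enrichment with the element was 11.4 and 11.1 with PBS, and with SCF it was 11.5 and 10.9. The median summit pileup, in fragments, was 66 and 87 with PBS and 64 and 59 with SCF, and it was highest in PBS replicate 2, the deepest library. Of the 297 regions, 102 (34.3%) were among the strongest 10% of all regions, at a mean rank of at least 85.2, and 99 of them were promoters.

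Calling was also more regular. Of all regions, 51.3% were called in all 4 libraries, whereas 257 of the 297 with the element were (86.5%, Wilson interval 82.2% to 89.95%). The share was 67.1% in the GC-weighted regions and 77.3% with CpG weighted too. The closest of the same-letter palindromes were similar in both measures. The median mean rank was 76.2 with TCACGTGA, 73.9 with TTCCGGAA and 76.4 with ATGCGCAT, and 82.8%, 78.5% and 88.9% of their regions were called in all 4 libraries. Over the 921 regions with any of the 23, the values were 60.4 and 69.2%. Of the remaining 40 regions with the element, 9 were called in 3 libraries, 9 in 2 and 22 in 1.

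Strength is given separately at promoters and away from them. Promoter regions with the element had a median mean rank of 80.4 and were called in all 4 libraries in 94.3% (Wilson interval 90.7% to 96.6%). In promoter regions without it, the median was 66.04 and the share 80.1% after GC weighting, and 72.5 and 86.3% after weighting GC and CpG. Away from promoters the 51 regions had a median of 34.7, against 30.0 in the GC-weighted regions. Library by library the gap was wider, with medians of 60.7 against 39.1 in PBS replicate 1, 62.1 against 38.2 in SCF replicate 1 and 59.7 against 41.7 in SCF replicate 2, and it was small in PBS replicate 2 alone (43.1 against 39.9), which called the most of them, 45. These medians cover only the 30 to 45 regions that a library called. The 51 were called in all 4 libraries in 49.02% (Wilson interval 35.9% to 62.3%), and the GC-weighted value of 42.0% lay inside this interval.

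All regions were also put in order of strength. Promoter regions were divided into 5 groups of equal size by mean rank, and the share with the element rose from 0.144% in the weakest group (5 of 3469) through 0.750%, 1.59% and 2.05% to 2.57% in the strongest (89 of 3469). The Wilson intervals of the weakest (0.0616% to 0.337%) and the strongest group (2.09% to 3.15%) did not overlap. The share with any of the 23 other palindromes rose as well, from 1.82% to 4.67%. The median CpG ratio rose from 0.465 to 0.864 over the same groups, and its part in the result was not tested. In regions away from promoters the share was 0.210% in the weakest group, 0.0953% in the 3rd and 4th, and 0.400% in the strongest, with 5 to 21 regions in each.

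**Figure D3:**
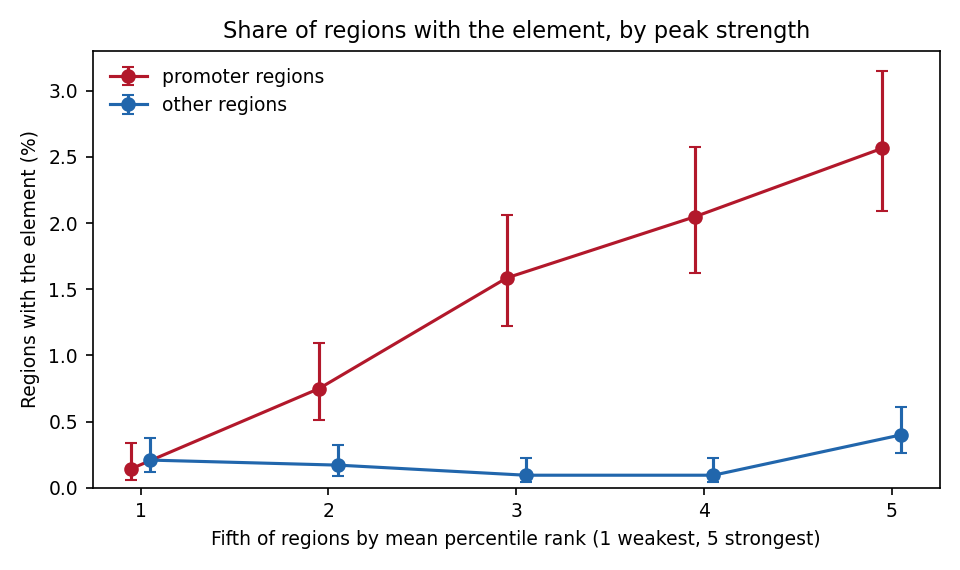
Percent of regions with the cAMP response element in 5 equal groups of increasing mean percentile rank, for promoter regions (red) and other regions (blue); bars are 95% Wilson intervals. The promoter share rises from 0.144% to 2.57%, and the other regions stay at or under 0.400%.

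The 10 promoter regions with the highest mean rank lay between 98.5 and 99.9. GTF2IRD2, of the TFII-I family, ranked first, with 99.8 and 99.98 after PBS and 99.9 and 99.97 after SCF. Its summit pileups were only 44, 73, 47 and 57 fragments, and the 60 bases around its element recur identically in another merged region, so its values are uncertain. PSTK ranked 99.8 in both PBS libraries, and 99.9 and 99.8 after SCF, with pileups of 145 and 202 and of 152 and 135. Unlike most, its element lay 120 bp inside the gene, in a coding exon. The following places were taken by a pair of lncRNA starts, ENSG00000291203 on chromosome 4 and ENSG00000290989 on chromosome 1, which shared 143 of the 200 bases around the element, whereas the next most alike pair of the 10 shared 78.

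IFT27 ranked 99.4 and 99.6 with PBS and 99.7 and 98.9 with SCF. ZNF200 ranked 99.6 in both PBS libraries and 98.4 and 98.3 with SCF. At HTD2, of mitochondrial fatty acid synthesis, which shares its start region with RPP14 of ribonuclease P, the ranks were 98.97 and 99.6 with PBS and 97.9 and 98.7 with SCF. MAOA ranked 99.6 in both PBS libraries and 98.2 and 96.6 with SCF. The last of the 10 were the lncRNA ENSG00000288723, whose summit was within 1 kb of the start of the mismatch repair exonuclease gene EXO1, at a mean rank of 98.5, and AMN1, also at 98.5. By fold enrichment, the value they were chosen by, the 10 regions were thus near the top in every library. By summit pileup the mean rank was 74.8 at GTF2IRD2, 78.6 at MAOA and between 90.6 and 98.3 at the others.

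Of the 51 regions away from promoters, 3 were among the strongest 10%. The region 12021 bp from the start of TEX44 ranked 97.5 and 93.6 with PBS and 94.2 and 97.7 with SCF. The region 9854 bp upstream of LINC01816 ranked 95.3 and 96.7 with PBS and 93.9 and 92.3 with SCF, and its pileups of 221, 292, 200 and 161 fragments were the largest of the 5 strongest. The region 1761 bp downstream of a start of AATK, in an intron of this kinase gene, had a mean rank of 92.1. Those in introns near ZSWIM6 (84.1) and SHANK1 (83.6) followed. The nearest start is given for location only.

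Few genes of the cAMP system held the element, in numbers too small to compare lists. Of 13458 protein-coding genes with an accessible region within 1 kb of a start, 260 (1.93%) had one with the element. Among CRE binding factors it was 1 of 19 genes with an accessible start (CREB3L2), among coactivators 0 of 6, among genes of the cAMP and PKA pathway 1 of 23 (PDE4A), and among kinases that act on CREB or its coactivators in growth factor signalling 1 of 10 (SIK1). Among genes known as cAMP responsive it was 5 of 35, namely JUND, NR4A2, SIK1, CCNA2 and PCK1, or 14.3%. Among erythroid genes it was 1 of 35, EPB41, which encodes protein 4.1 of the red cell membrane skeleton. Over all lists, 8 of 124 genes (6.45%) had the element.

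CREB3L2 and SIK1 were the strongest of these regions. CREB3L2 ranked 97.5 and 97.3 with PBS and 93.5 and 98.0 with SCF. SIK1 ranked 97.4 and 91.3 with PBS and 98.8 and 95.1 with SCF. The ranges of the treatments overlapped at both genes. CCNA2 ranked 79.6 and 83.1 with PBS and 77.9 and 70.9 with SCF, and PDE4A ranked 77.8 and 77.0 with PBS and 71.1 and 69.7 with SCF. Neither difference passed limma (adjusted p = 0.895 at CCNA2 and 0.910 at PDE4A).

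JUND ranked 68.1 and 62.7 with PBS and 62.3 and 62.6 with SCF. PCK1 ranked 64.2 and 53.8 with PBS and 48.1 and 57.5 with SCF. NR4A2 ranked 37.4 and 41.6 with PBS and 35.0 and 41.5 with SCF. The treatments overlapped at PCK1 and NR4A2, and at JUND the difference did not pass limma (adjusted p = 0.980). EPB41 was called in PBS replicate 2 alone, at a rank of 3.87.

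The ranks rest on the local background, and the summit pileup gave another order for some of these genes. JUND had 398, 459, 331 and 280 fragments in PBS replicates 1 and 2 and SCF replicates 1 and 2, which put it at a mean pileup rank of 99.8. PDE4A had 243, 345, 215 and 189 fragments and a mean pileup rank of 99.3. NR4A2 had 60, 83, 50 and 48 and a mean pileup rank of 77.0. By pileup JUND, PDE4A and NR4A2 were thus placed well above their rank by fold enrichment. EPB41, with 56 fragments in PBS replicate 2, also went up, from 3.87 to 70.9. PCK1 went the other way, from a mean rank of 55.9 to a mean pileup rank of 38.0.

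Several classical targets had the palindrome outside the window. At PRKAR1A, the regulatory subunit of PKA, a copy was centred 164 bp from the summit of a region of mean rank 89.1, and at PDE7A, a cAMP phosphodiesterase, 161 bp from that of a region of rank 83.7. At FOSB the distance was 170 bp, at DUSP1, a MAPK phosphatase, 214 bp, and at CREM, whose internal promoter is controlled by cAMP, 225 bp. CREB5 (206 bp) and the mitochondrial iron importer SLC25A37 (143 bp) were the other genes of the lists with a copy within 500 bp. These regions are not among the 297.

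Other short words were counted within 100 bp of the summit on both strands, with the letters of the element masked, so that no word could share them, and the comparison was weighted by GC alone. At promoter regions, AGCCAAT, the word of NF-Y, occurred in 24 of 246 regions with the element (9.76%, Wilson interval 6.64% to 14.1%) and in 5.14% of the GC-weighted promoter regions without it. GGGCGGG, of the SP and KLF factors, occurred in 46.7% (40.6% to 53.0%) against 37.5%, and AAGATGGC, of YY1, in 4.88% (2.81% to 8.33%) against 2.40%. The weighted values of these 3 words lay below the intervals. The CpG ratio, with the element's own letters counted, still had a median of 0.959 at promoters with the element and 0.815 at the GC-weighted ones. Its part in these values was not tested. CCGGAAG for ETS (10.6% against 10.3%), GCGCNTGCG for NRF1 (9.76% against 8.03%), GTCACGTG for USF (3.66% against 2.29%), GCGTGGG for EGR (6.50% against 7.24%), TGANTCA for AP-1 (3.66% against 2.88%) and the serum response element (0.813% against 0.542%) lay within their intervals. Over all regions, the words were found in 3.47% for NF-Y, 16.8% for SP and KLF, 1.503% for YY1, 4.44% for ETS, 3.09% for NRF1, 1.11% for USF, 3.799% for EGR, 8.43% for AP-1 and 0.918% for the serum response element.

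The GATA word, AGATAA or TGATAA, is bound by GATA1 at erythroid enhancers. It occurred in 16 of the 297 regions (5.39%), in 25.4% of all regions and in 9.81% of the GC-weighted regions without the element. At promoter regions the share was 2.44% (Wilson interval 1.12% to 5.22%) with the element and 5.18% after GC weighting, just inside the interval. Away from promoters it was 10 of 51 (19.6%) against 36.3% in the regions without the element, not weighted. The CpG ratio differed here as well, and its part was not tested.

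A palindrome with 1 letter changed was more frequent beside the full element. At promoter regions, 24 of 246 (9.76%, Wilson interval 6.64% to 14.1%) held 1 of the 24 single-letter variants, against 4.82% of GC-weighted promoter regions without the element and 5.06% of all regions. The variant CGACGTCA, read on either strand, contributed 9 of these (3.66%, 1.94% to 6.81%), against 0.495% after weighting. The arm TGACG alone, elsewhere in the window, was found in 25.2% (20.2% to 31.0%) against 20.3%, and in 12.5% of all regions. CpG was not weighted in this comparison, and its part was not tested. These matches are letters in a window and not sites.

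**Figure D4:**
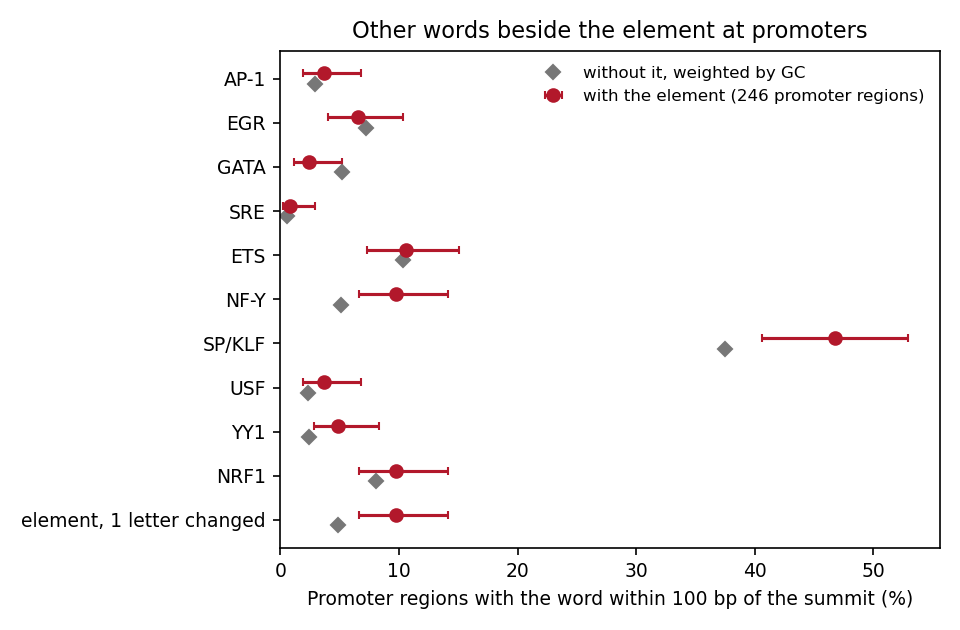
Percent of promoter regions with each word within 100 bp of the summit, for the 246 regions with the cAMP response element (red, with 95% Wilson intervals) and for promoter regions without it, weighted by GC but not by CpG (grey diamonds). The NF-Y, SP/KLF and YY1 words and the 1-letter variants lie above the weighted values by more than the interval.

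The comparison of SCF with PBS asked whether accessibility at the element moved within 1 h of Kit activation. As regions are compared in bulk, a change in the number of cells with an open site and a change within each cell cannot be told apart. The share of all peaks of a library with the element within 100 bp of the summit was 0.901% and 0.855% in PBS replicates 1 and 2 and 0.996% and 0.821% in SCF replicates 1 and 2. The means were 0.878% ± 0.0323 (SD, n = 2) with PBS and 0.908% ± 0.124 (SD, n = 2) with SCF. The SCF libraries were the highest and the lowest of the 4. The difference of 0.0301 points was smaller than the spread (two-sided exact permutation test, p = 1, where 2 against 2 libraries cannot go below 0.333).

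At the 257 regions called in all 4 libraries, the mean SCF rank minus the mean PBS rank had a median of -0.612 points (quartiles -4.75 and 3.26), and 121 of 257 were above 0. Over all 22355 regions tested the median was -0.534 (quartiles -5.98 and 4.45). Between single libraries, a difference of over 10 points was seen in 30.7% of the 257 for SCF replicate 1 against PBS replicate 1 and in 19.8% for SCF replicate 2 against PBS replicate 2. Between replicates of the same treatment it was seen in 23.7% with PBS and 26.1% with SCF. The replicate values thus lay between those across treatments. Between the treatment means, a difference of over 10 points was seen in 24 of 232 promoter regions with the element (10.3%). In all promoter regions the share was 17.6%. Away from promoters such a difference was seen in 10 of 25 regions with the element. Over all 22355 regions the share was 25.8%, above that of all promoter regions, so such differences were in general more frequent away from promoters. The 10 of 25 is therefore not by itself a mark of the element.

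By limma on quantile-normalised log2 fold enrichment, 0 of the 257 regions passed an adjusted p of 0.05 in either direction, and 0% of all 22355 were called higher and 0% lower with SCF. At an unadjusted p under 0.05, 10 regions with the element were higher and 10 lower (3.89% each), where 3.43% of all regions were higher and 3.39% lower. The smallest adjusted p by limma was 0.640 among the 257 and 0.516 among all 22355 regions. As nothing passed in either set, 0 of 257 does not show that accessibility at the element stayed the same. The study called gained and lost sites in HUDEP-2 cells with MAnorm, which works on reads and could not be run on the peak lists. The median log2 difference was -0.01 with a median SE of 0.14, and single regions ran from -0.56 to 0.57. With summit pileup in place of fold enrichment limma called 0 of 257 as well.

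In a rank gain the lower of the SCF ranks exceeded the higher of the PBS ranks by 10 points or more, and a rank loss was the reverse. Gains were seen in 6 of 257 regions (2.33%), where 2.56% of all regions gained, and losses in 3 (1.17%), where 3.04% of all regions lost. Of the 6 gains, 3 were among 232 promoter regions (1.29%), where 1.20% of all promoter regions gained, and 3 among the 25 regions away from them, where 4.49% of all such regions gained. The sequences of the regions at LDHA, STEEP1 and ACOX3 and near LINC00887 are given as the examples described next. The LINC00887 gene itself lies on the minus strand.

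LDHA, chr11:18416023-18416102, plus strand: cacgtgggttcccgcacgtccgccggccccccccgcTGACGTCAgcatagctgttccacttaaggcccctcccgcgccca
STEEP1, chrX:118699361-118699390, minus strand: aggcgcactcgTGACGTCAtttcggggcga
ACOX3, chr4:8442463-8442492, minus strand: gcgcggcgcgtTGACGTCAtggaggcgggg
LINC00887, chr3:194033402-194033481, plus strand: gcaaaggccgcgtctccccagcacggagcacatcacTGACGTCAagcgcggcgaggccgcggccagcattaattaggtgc

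LDHA had its element 44 bp upstream of the nearest annotated start. The gene encodes lactate dehydrogenase A and is long known as cAMP-responsive, although it is not on the list used above. Its ranks were 6.16 and 9.40 with PBS and 28.7 and 36.2 with SCF, and its pileups were 32, 45, 48 and 50 fragments. Both SCF ranks lay above both PBS ranks, and the log2 fold enrichment was 0.54 higher (SE 0.21, adjusted p = 0.692 by limma). LDHA had the largest rise in mean rank with SCF among the 257, 24.7 points.

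STEEP1, a factor for the exit of STING from the endoplasmic reticulum, ranked 59.8 and 73.7 with PBS and 85.9 and 90.5 with SCF. It had the lowest p of the 257 (log2 difference 0.52, SE 0.15, adjusted p = 0.640 by limma), with pileups of 16, 24, 24 and 25. BCL6B, a transcriptional repressor, had its element in a coding exon 312 bp downstream of the start and ranked 52.7 and 63.6 with PBS and 78.3 and 74.3 with SCF. The summit pileups at these promoters were below 70 fragments in every library.

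Away from promoters, the region 2842 bp upstream of LINC00887 ranked 68.9 and 72.6 with PBS and 83.6 and 94.4 with SCF. A region of chromosome 2 whose nearest start, of RNU6-566P, was 67449 bp away ranked 40.9 and 59.4 with PBS and 77.3 and 71.5 with SCF. The region 1441 bp upstream of ATP5F1D, a subunit of ATP synthase, ranked 2.03 and 2.95 with PBS and 15.0 and 14.2 with SCF. The treatments were apart at all 6 gains by the rule itself.

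Losses were seen at ACOX3, a peroxisomal acyl-CoA oxidase (69.9 and 71.8 with PBS, 56.3 and 53.3 with SCF), at the lncRNA ENSG00000281091 (59.8 and 66.3 with PBS, 31.6 and 45.7 with SCF) and 1962 bp downstream of the start of UCKL1 (60.6 and 60.1 with PBS, 41.3 and 49.9 with SCF). When regions were ranked by summit pileup instead, none of the 6 gains passed the rule, and of the 3 losses only that at ENSG00000281091 did. ENSG00000288007 was the other loss by pileup.

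The remaining large differences did not separate the treatments by 10 points. GPR153, an orphan receptor, had a mean rank 21.2 points higher with SCF. EML2, a microtubule-associated protein, had a mean difference of -27.5 points, with 65.7 and 56.3 with PBS and 15.6 and 51.3 with SCF. GNB1, a G protein beta subunit, ranked 63.2 and 40.9 with PBS and 36.8 and 13.4 with SCF. TMEM86A and ENSG00000288007 were also among the 5 regions with the lowest mean difference. The SCF replicates at EML2 lay farther apart than the treatments did on average.

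A pair of regions was called with 1 treatment only. PMEPA1, an inhibitor of TGF-beta signalling, had the element at its start and was called in both SCF libraries, at ranks of 4.13 and 45.7 and pileups of 6 and 11 fragments, and in no PBS library. SLC45A1, a sugar transporter gene, was called in both PBS libraries, at ranks of 40.0 and 32.7 and pileups of 14 and 12, and in no SCF library. Each was 1 of 297 regions (0.337%), where 1.65% of all regions were called with SCF only and 2.37% with PBS only. Both were promoter regions, and in all promoter regions the shares were 0.790% and 1.395%, within the Wilson intervals for 1 of 246 (0.0718% to 2.27%). At such pileups a site near the threshold can go uncalled, and both SCF libraries were shallower than both PBS libraries. The part of depth in these calls was not tested.

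**Figure D5:**
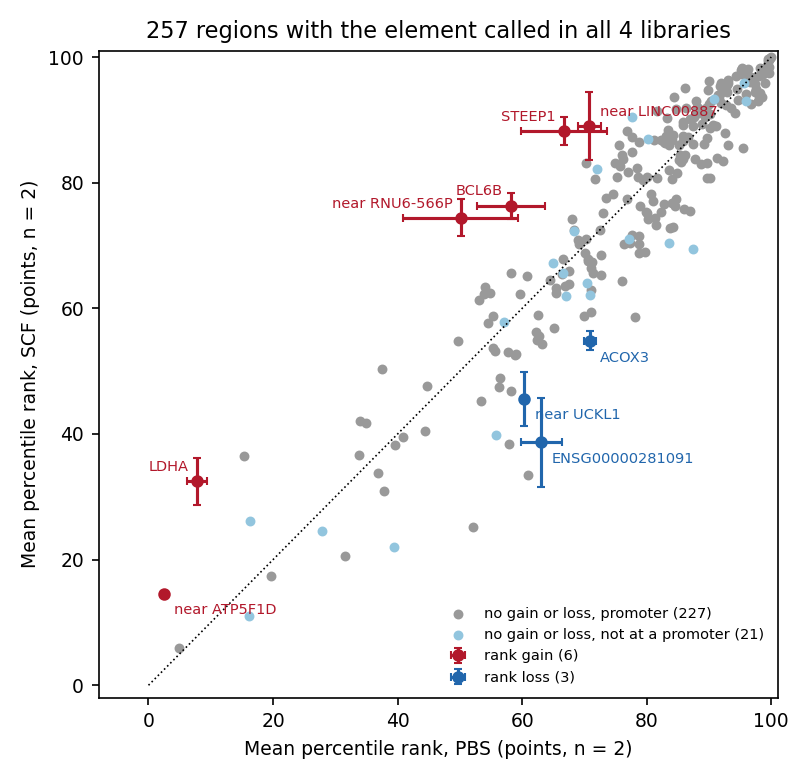
Mean percentile rank with PBS and with SCF for the 257 regions with the element called in all 4 libraries, n = 2 libraries per axis. Rank gains (6, red) and losses (3, blue) carry bars from the lower to the higher library, and the dotted line marks equal ranks, near which most points lie.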

How the data were processed

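ATAC-seq peak lists of 4 sgControl libraries were used, as deposited. The authors sequenced paired ends and applied the ENCODE pipeline, with Bowtie2 and SAMtools named in the submitters' processing notes. Lists were called per library, not pooled, and caller settings are not given in the sources used here. The methods name hg38, but the deposited headers name hg19. No peak ran past a GRCh37 chromosome end, and GRCh37 was used. The deposited columns hold a score (not used), the ratio of summit pileup to local background (fold enrichment), and −log10 p-values and −log10 q-values. Whole-number pileups were recovered from fold enrichment and −log10 p (relative tolerance 0.0001) in 100% of peaks with a −log10 p under 300.

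Regions on 24 chromosomes (43569 of 43654) were kept. Regions called in all 4 libraries were tested with limma 3.58.1 (R 4.3.3, quantile normalisation, Benjamini-Hochberg adjustment). The test was also run on simulated data with shifts of 1 and 2 log2 units only. It found 82 and 99 of 100 shifted regions, with 13 false calls. Smaller shifts, such as the differences seen at the element, were not simulated. The share of peaks per library was compared by an exact permutation test. Other shares were not tested, and Wilson intervals cover counting error only. Regions named were the 10 strongest at promoters, the 5 strongest elsewhere, the 5 largest rises and falls, every gain, loss or single-treatment call, those with 2 copies, and those at starts of listed genes. The members and lists were chosen with earlier results of these data known. Alternatives changed the window, promoter limit, ranked value, threshold, weights and libraries included. Some sequences and 1 marker list are not reported here.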

Additional observations from a re-analysis of the deposited data

How the results depend on the processing

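The number of regions with the element was 142 with a window of 50 bp and 567 with 200 bp. Their promoter share was 86.9% with a limit of 3 kb, 74.7% with protein-coding starts only and 90.3% among those called in all 4 libraries (an alternative added after seeing the data). The GC-weighted share without the element was 62.5% with bins of 10 points, 63.9% without the element letters and 75.9% with GC and CpG together, also added later. The median rank was 80.2 by −log10 p, 79.4 by pileup, 75.3 with a window of 50 bp, 77.1 with 200 bp, and 76.7 to 78.0 with 1 library left out.

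Of the 257 regions, gains numbered 15 with a gap of 5 points, 0 with 20 points and 0 by pileup, and losses 16 and 0 with those gaps. Of all 22355 regions, gains numbered 1352, 89 and 225 in this order, and losses 1729 and 121. Since 2 of the 4 comparisons between libraries fall away when a library is left out, gains and losses rose. Without PBS replicate 1, 11 of 247 regions gained and 14 lost, where 6.44% and 10.8% of all regions did. Without PBS replicate 2, 21 of 269 gained and 13 lost, against 10.4% and 7.19% of all regions. Without SCF replicate 1, 12 of 262 gained and 18 lost, against 11.2% and 8.26%. Without SCF replicate 2, 14 of 268 gained and 28 lost, against 5.94% and 14.4%. All regions rose likewise, to between 1381 and 2705 gains and between 1652 and 3350 losses.

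By limma 0 regions with the element were called under every alternative, with 5 to 22 at an unadjusted p under 0.05. Among all regions, leaving out a library gave 12, 9, 3 and 7 calls in the same order, where the lone library is assumed to vary like the others. Replicate numbers are shared by the treatments in the labels, but nothing says that they mark a shared culture or day, and the peak names inside the lists carry other numbers (2 and 3 for the PBS, 1 and 2 for the SCF libraries), so the pairs below hold by label only. The deviations of same-numbered libraries correlated at only 0.0114 over 22355 regions. With the replicate block limma also called 0, and the difference in the share of peaks remained 0.0301 points (0.0949 in pair 1 and -0.0348 in pair 2). That difference turned to -0.0576 points without SCF replicate 1 and reached 0.118 without SCF replicate 2, and the cause was not tested. Read totals are unknown, and sites with few fragments can go uncalled in the shallower libraries, which here were those with SCF.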
